A study of Mus musculus with 6 samples.

Results

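miR-146a, miR-146b and miR-155 are the best known miRNAs of innate immune regulation, and 5 of their mature arms were examined in small RNA libraries of mouse extracellular vesicles (EVs): mmu-miR-146a-5p, mmu-miR-146a-3p, mmu-miR-146b-5p, mmu-miR-155-5p and mmu-miR-155-3p, written below without the mouse prefix. They were chosen by name, as the listed arms of the mir-146a, mir-146b and mir-155 hairpins, and are 5 of 1966 mature miRNAs in the table, of which 771 had at least 1 count. The 6 libraries came from 3 colon EV and 3 BMDC EV preparations, all from mice with the Rab27A fl/fl genotype, and the labels name neither a Cre driver nor a treatment for any of them. Colon EVs were collected over 16 hours from the medium of opened colons, which hold epithelial, immune and stromal cells together, and were taken from fraction 2 of an iodixanol density gradient. BMDC EVs came from bone marrow cells grown with GM-CSF for 7 days into dendritic cells, a culture made of myeloid cells. The labels restrict the gradient to the colon preparations, whereas the text of the study also mentions it for BMDC EVs, so that its use for BMDC EVs is unsettled here. The medium and the cell source, and the gradient if it was used for colon EVs alone, change together between the groups and cannot be told apart. The study set the sources side by side to see which miRNAs of DC vesicles are also present in the mixed vesicles of the gut.

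miRNAs pair with target mRNAs mainly through their seed, bases 2 to 8 from the 5′ end, and lower the translation or stability of those targets. miR-146a and miR-146b are induced through NF-κB and act as a brake on it by repressing the adaptors TRAF6 and IRAK1, which pass on toll-like receptor and IL-1 receptor signals. miR-155 is cut from the noncoding transcript Mir155hg when myeloid cells and lymphocytes are activated, and it favors inflammatory responses by repressing negative regulators such as SOCS1 and the phosphatase SHIP1. The mature sequences from RefSeq (GRCm38.p6) are shown because the seed separates the members into families, and because the balance between miR-146a-5p and miR-146b-5p rests on 2 bases. The seed is in capitals, and all 5 members matched the RefSeq table.
miR-146a-5p: uGAGAACUgaauuccauggguu
miR-146b-5p: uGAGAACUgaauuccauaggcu
miR-155-5p: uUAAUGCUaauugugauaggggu
miR-146a-3p: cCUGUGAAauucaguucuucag
miR-155-3p: cUCCUACCuguuagcauuaac
miR-146a-5p and miR-146b-5p share their seed with each other and with no other mouse miRNA of the RefSeq table, and no miRNA of that table shares the seed of miR-155-5p, miR-146a-3p or miR-155-3p. Over their 22 bases, miR-146a-5p and miR-146b-5p differ by the substitutions G18A and U21C, counted from the 5′ end with the base of miR-146a-5p first, so that their first 17 bases are identical and a read needs its 3′ part to be assigned to one of them.

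The hairpins are given as well, with the 5p and the 3p arm in capitals, because the arms of one hairpin differed so widely in counts.
mir-146a: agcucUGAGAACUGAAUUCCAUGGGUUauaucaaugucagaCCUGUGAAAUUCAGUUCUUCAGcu
mir-146b: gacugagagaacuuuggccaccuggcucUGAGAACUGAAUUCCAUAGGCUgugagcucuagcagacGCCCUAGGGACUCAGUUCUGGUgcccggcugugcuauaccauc
mir-155: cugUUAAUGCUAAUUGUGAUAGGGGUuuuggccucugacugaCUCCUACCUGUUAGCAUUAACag
The mir-146a hairpin lies at chr11:43374397-43374461 on the minus strand of GRCm38 and overlaps no other gene of the GENCODE vM21 annotation, the nearest being the noncoding gene Gm12148 on the other strand, 11021 bases away. The mir-146b hairpin lies at chr19:46342762-46342870 on the plus strand, inside an intron of the protein-coding gene Mfsd13a on the same strand. The mir-155 hairpin lies at chr16:84714140-84714204 on the plus strand, in exon 2 of Mir155hg. The 3 hairpins thus sit on 3 chromosomes and share no transcript.

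The total count was 173358 to 645303 in colon EV libraries and 83997 to 178454 in BMDC EV libraries, so that 3 counts, used here as a floor for counting error, stand for 4.65 to 17.3 and for 16.8 to 35.7 CPM, the count scaled to its library total, respectively. The labeled sources were checked against marker miRNAs. The 7 hematopoietic marker miRNAs (both arms of miR-142a, miR-223 and miR-342, and miR-150-5p) together held 0.332% to 0.696% of the counts of colon EV libraries and 17.0% to 19.0% of those of BMDC EV libraries, and 7 of 7 were higher in BMDC EVs. The 10 intestinal epithelial markers (such as miR-192-5p, miR-200c-3p and miR-375-3p) held 22.9% to 30.2% and 0.385% to 0.805%, and 10 of 10 were higher in colon EVs. No hematopoietic or epithelial marker was at 0 in all libraries of either source. Of 3 mesenchymal markers, miR-199a-3p was tested and was higher in colon EVs, and miR-199a-5p and miR-214-3p were at 0 in all BMDC EV libraries. In colon EV replicates 1 to 3, miR-199a-5p had 6, 3 and 2 counts and miR-214-3p had 1, 0 and 0, too few to be tested. None of 3 red cell markers had enough counts to be tested. Colon EV replicate 1 stood apart from the other colon libraries: a chi-square statistic of its counts against theirs was 68.4 and 52.6 per degree of freedom, compared with 6.25 between replicates 2 and 3, and it had the lowest hematopoietic and the highest epithelial share. To a lesser extent BMDC EV replicate 3 also differed from its group, at 23.3 and 17.4, compared with 6.66 between BMDC EV replicates 1 and 2. This statistic grows with depth, and both are the deepest libraries of their groups. Results are also given without colon EV replicate 1. Without BMDC EV replicate 3 the log2 fold changes of miR-146a-5p, miR-146b-5p and miR-155-5p were 3.48, 4.29 and 4.99.

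miR-155-5p, the guide arm of its hairpin, was the member that parted the sources most. Its level, in CPM scaled by the TMM method, was 1688, 3662 and 4414 in colon EV replicates 1 to 3. In BMDC EV replicates 1 to 3 it was 107444, 106550 and 111660. The BMDC EV libraries lay close together and the groups did not overlap, while the colon EV libraries spread over a wider range, with replicate 1 lowest. This single miRNA made up 12.7% ± 0.333 (SD, n = 3) of all counts from BMDC EVs, against 0.285% ± 0.140 (SD, n = 3) from colon EVs. It ranked number 1, 1 and 2 in abundance among all miRNAs in the BMDC EV libraries and number 55, 45 and 40 in the colon EV libraries. Its level was 33.5-fold higher in BMDC EVs, or 5.07 as a log2 fold change (SE 0.340, adjusted p = 1.78e-10, edgeR's quasi-likelihood test). Without colon EV replicate 1 the log2 fold change was 4.68 (SE 0.185).

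miR-146a-5p, which restrains NF-κB signaling in macrophages and T cells, had a TMM-scaled level of 717, 735 and 1180 CPM in colon EV replicates 1 to 3. Its level was 9758, 10465 and 13356 CPM in BMDC EV replicates 1 to 3. All BMDC EV libraries lay above all colon EV libraries, and replicate 3 was highest in both groups. miR-146a-5p was 12.9-fold higher in BMDC EVs, or 3.68 as a log2 fold change (SE 0.262, adjusted p = 4.15e-10, edgeR's quasi-likelihood test). Among the 220 tested miRNAs its mean level was number 14 in order for BMDC EVs, compared with number 75 for colon EVs. Without colon EV replicate 1 its log2 fold change was 3.49 (SE 0.266).

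miR-146b-5p, its paralog with the same seed, was at 298, 417 and 446 CPM on the same scale in colon EV replicates 1 to 3. In BMDC EV replicates 1 to 3 it was at 8890, 6589 and 9329 CPM. The groups again did not overlap, and the lowest colon EV library was again replicate 1. The level of miR-146b-5p was 21.7-fold higher in BMDC EVs, or 4.44 as a log2 fold change (SE 0.262, adjusted p = 2.84e-11, edgeR's quasi-likelihood test), or 4.19 (SE 0.241) without colon EV replicate 1. Together, miR-146a-5p and miR-146b-5p held 0.0791%, 0.0996% and 0.149% of the counts of colon EV replicates 1 to 3. They held 2.27%, 2.03% and 2.52% of those of BMDC EV replicates 1 to 3. The colon level amounted to 7.84% of the BMDC level for miR-146a-5p, 4.68% for miR-146b-5p and 3.00% for miR-155-5p. The level of a miRNA in a colon EV library depends on the share of vesicles from cells that make it and on the amount in each vesicle, and these cannot be told apart here.

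**Figure D1:**
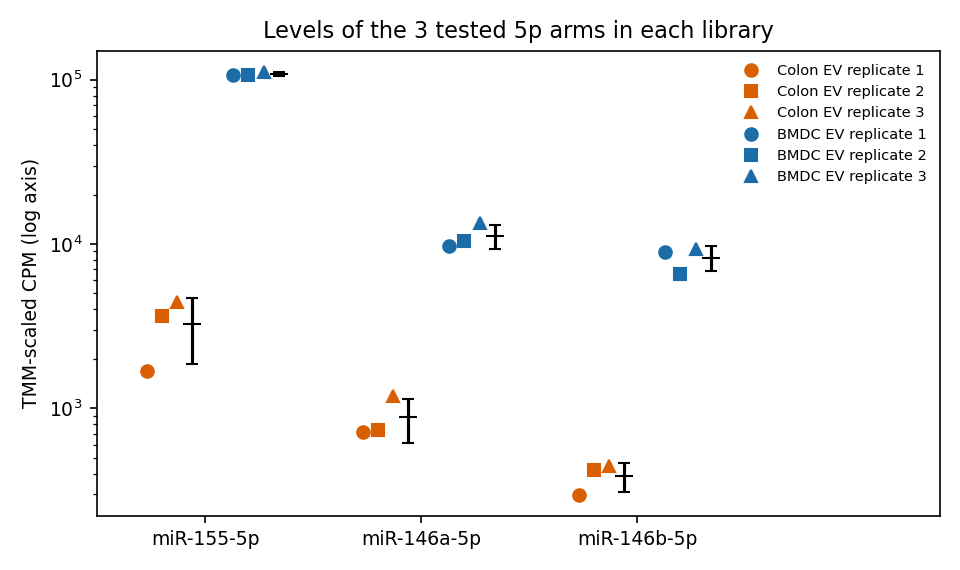
TMM-scaled CPM on a log axis for miR-155-5p, miR-146a-5p and miR-146b-5p in each of the 3 colon EV and 3 BMDC EV libraries, 1 symbol per library, with the mean and SD of each group in black. All BMDC EV libraries lie above all colon EV libraries for each miRNA, and miR-155-5p is highest in both groups.

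Of the 5 members, miR-146a-5p, miR-146b-5p and miR-155-5p passed the filter of 10 counts in at least 3 libraries, and 3 of the 3 rose in BMDC EVs. A call was common in this comparison: of all 220 tested miRNAs 76.8% were called by edgeR at an adjusted p under 0.05, 40.5% with the higher level in BMDC EVs and 36.4% with the higher level in colon EVs. Every BMDC EV library lay above every colon EV library for 42.7% of them, and below for 39.1%. By the size of the change, the members stood nearer to the top: among 220 log2 fold changes, miR-155-5p was number 12, miR-146b-5p number 22 and miR-146a-5p number 32 in favor of BMDC EVs. The study's base level of 100, read as the mean normalized count, together with a log2 fold change over 2, was met by the same 3 members and by 11.4% of the tested miRNAs. The median log2 fold change was 4.44 over the 3 tested members, 0.19 over all tested miRNAs and 4.71 over the 7 hematopoietic markers. The markers' part in the members' difference was not tested by this fit.

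Other miRNAs with known roles in NF-κB and toll-like receptor responses were found on both sides. From a list of 22, 18 were tested, of which 8 were higher in BMDC EVs, 5 were higher in colon EVs and 5 did not pass the test, with a median log2 fold change of 0.37. These counts are 44.4% and 27.8% of the list's tested miRNAs, near the 40.5% and 36.4% of all tested miRNAs. Without colon EV replicate 1, 7 and 4 of the list were called. The 3 highest among those called were miR-9-5p, which represses Nfkb1, with a log2 fold change of 5.09, miR-132-3p, which toll-like receptor signals induce, with 4.38, and miR-222-3p, a regulator of the receptor Kit, with 3.03. The 3 lowest were the hypoxia-induced miR-210-3p, with −3.02, miR-125b-5p, a regulator of TNF, with −2.65, and its relative miR-125a-5p, with −1.47. miR-21a-5p, an abundant miRNA of many inflamed tissues, had 9897 ± 2944 CPM (SD, n = 3) for colon EVs against 6792 ± 420 (SD, n = 3) for BMDC EVs (log2 fold change −0.54, adjusted p = 0.0394 by edgeR's quasi-likelihood test), so that its level was above that of miR-146a-5p in colon EVs and below it in BMDC EVs. miR-147-3p, another miRNA of macrophage activation, was at 396 ± 55.9 CPM (SD, n = 3) and 403 ± 191 (SD, n = 3).

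**Figure D2:**
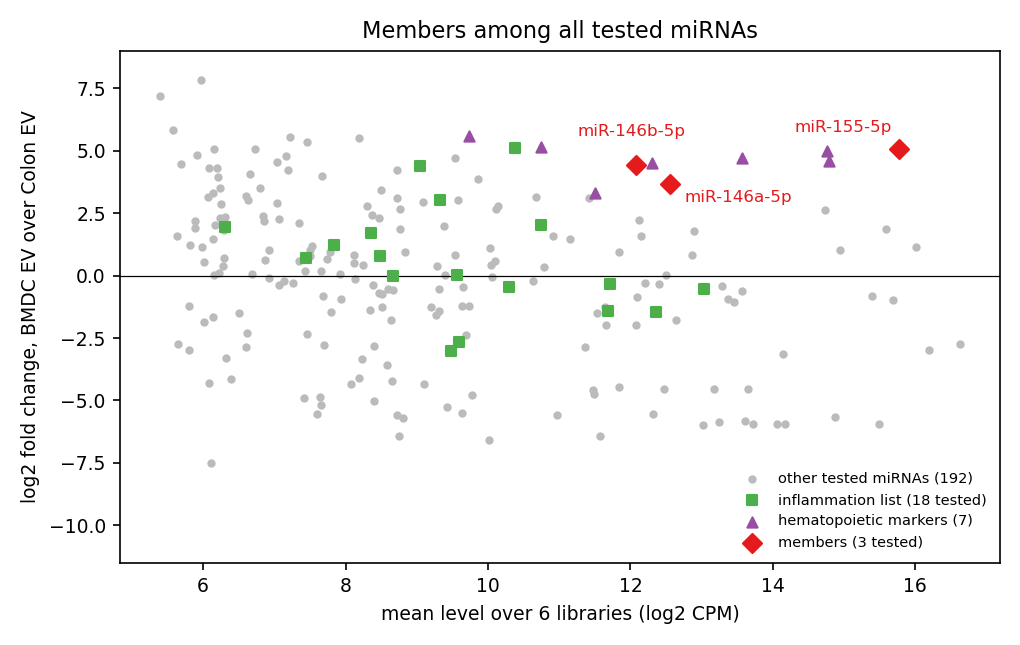
Log2 fold change of BMDC EVs over colon EVs against the mean level in log2 CPM for 220 tested miRNAs, 1 point each, with 3 tested members as diamonds, 18 tested miRNAs of the inflammation list as squares and 7 hematopoietic markers as triangles. The members lie between 3.68 and 5.07 at high mean levels, among the hematopoietic markers, while the inflammation list lies on both sides of 0.

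The balance between the miR-146 paralogs was compared between the sources. Its difference was not called by edgeR's test of usage, and the exact test of 3 against 3 libraries cannot reach a p under 0.05. It was taken as the ratio of their counts within a library, which no scaling between libraries can change. miR-146a-5p had 361, 148 and 188 counts against 150, 84 and 71 of miR-146b-5p in colon EV replicates 1 to 3, giving ratios of 2.41, 1.76 and 2.65. It had 1507, 1045 and 2653 counts against 1373, 658 and 1853 in BMDC EV replicates 1 to 3, giving ratios of 1.10, 1.59 and 1.43. miR-146a-5p was thus the more frequent paralog in all 6 libraries, with a larger excess in colon EVs, and the groups lay apart by a small gap. The mean ratio was 2.27 ± 0.458 (SD, n = 3) for colon EVs against 1.37 ± 0.251 (SD, n = 3) for BMDC EVs, a difference of −0.72 on the log2 scale (two-sided exact permutation test, p = 0.1, the smallest that 3 against 3 libraries can give, adjusted p = 0.138 over 11 ratios). The gap between the nearest libraries, 1.76 in colon EV replicate 2 and 1.59 in BMDC EV replicate 2, was within the 95% counting interval of the colon library, 1.34 to 2.33 (exact binomial). edgeR's test of differential usage, which asks whether miRNAs of one seed family change unequally, gave this pair an adjusted p = 0.0721 over 23 families, of which 47.8% were called. Values that were not whole numbers occurred in 5 of 6 libraries for miR-146a-5p, in 4 of 6 for miR-146b-5p and in 6 of 6 for miR-155-5p. Whether reads shared between the paralogs affected their ratio was not tested.

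The ratio of miR-155-5p to the sum of miR-146a-5p and miR-146b-5p, which sets the miRNA that favors inflammation against those that restrain it, lay higher in every BMDC EV library than in every colon EV library, at the smallest p the design allows. It was 1.66, 3.18 and 2.71 in colon EV replicates 1 to 3, compared with 5.76, 6.25 and 4.92 in BMDC EV replicates 1 to 3. miR-155-5p outnumbered the miR-146 pair in all 6 libraries, and the counting intervals of the colon EV libraries, which end at 3.70, lay below those of the BMDC EV libraries, which begin at 4.77. The mean ratio was 2.52 ± 0.775 (SD, n = 3) for colon EVs against 5.64 ± 0.671 (SD, n = 3) for BMDC EVs, a difference of 1.21 on the log2 scale or 2.31-fold between geometric means (two-sided exact permutation test, p = 0.1, the smallest possible, adjusted p = 0.138 over 11 ratios). It was 0.94 on the log2 scale without colon EV replicate 1, the library with the lowest ratio. These are ratios of reads, and a ratio of reads between miRNAs of different sequence is not a ratio of molecules.

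**Figure D3:**
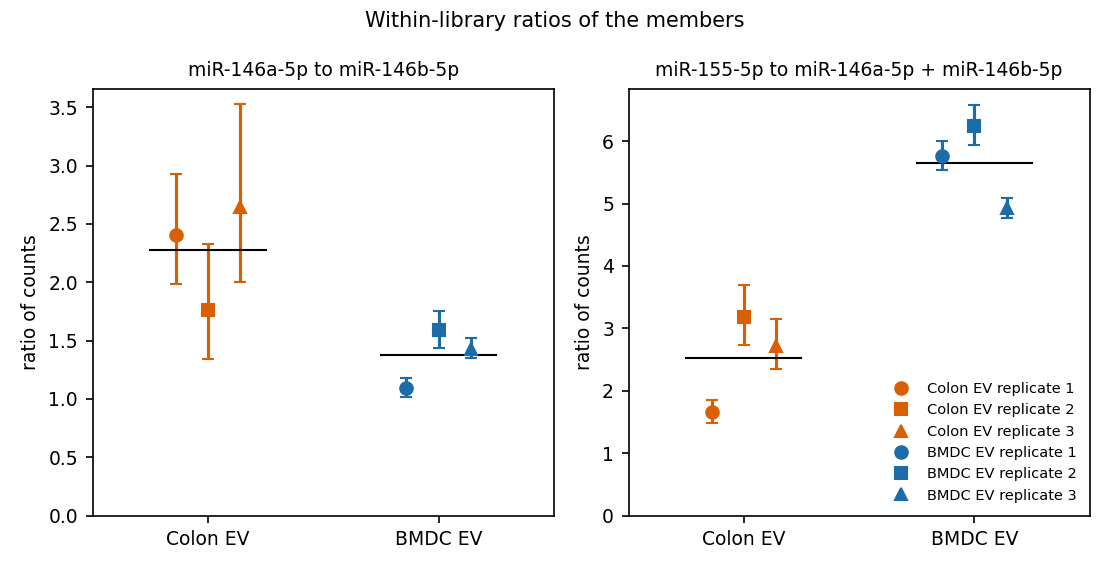
Ratio of miR-146a-5p to miR-146b-5p counts (left) and of miR-155-5p to the summed miR-146a-5p and miR-146b-5p counts (right) in each library, with 95% exact binomial intervals that cover counting error only and the group means as black lines. Ratios on the left are 1.76 to 2.65 in colon EVs and 1.10 to 1.59 in BMDC EVs, and on the right 1.66 to 3.18 and 4.92 to 6.25.

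The 3p arms, the strands that are usually discarded when the hairpin is loaded into Argonaute, were nearly or wholly missing. miR-146a-3p had 0 counts in all 6 libraries beside 697 counts of miR-146a-5p in colon EVs and 5205 in BMDC EVs. With the 3 libraries of a source summed, the 95% exact binomial interval of the 3p share ended at 0.528% in colon EVs and at 0.0708% in BMDC EVs. The counts of miR-155-3p were 0, 1 and 0 in colon EV replicates 1 to 3, against 0, 9 and 0 in BMDC EV replicates 1 to 3, beside 16594, 10640 and 22180 counts of miR-155-5p in the BMDC EV libraries. Among BMDC EVs the 9 counts were all in replicate 2, the shallowest library, where they made up 0.0845% of the counts of the hairpin (95% exact binomial interval 0.0387% to 0.160%), while the exact upper bounds for the 0 counts of replicates 1 and 3 were 0.0222% and 0.0166%. The deposited value behind these 9 counts was 9.33, not a whole number, and whether the reads are of miR-155-3p could not be checked without the reads. With so few counts neither 3p arm passed the count filter, so neither was tested in the main fit, and no ratio of the arms was formed.

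mir-146b, whose 3p arm is not among the members and was added after its counts were seen, retained more of its 3p strand. miR-146b-3p had 7, 3 and 0 counts in colon EV replicates 1 to 3, compared with 15, 22 and 53 in BMDC EV replicates 1 to 3. With the counts of the 3 libraries summed, it made up 3.17% of the counts of its hairpin in colon EVs (95% exact binomial interval 1.53% to 5.76%) and 2.26% in BMDC EVs (1.82% to 2.78%), where mir-146a had no 3p count. These intervals cover the counting error of the sums and not the spread between libraries. In BMDC EV replicates 1 to 3 the share was 1.08%, 3.24% and 2.78%. The use of the mir-146b arms did not differ detectably between the sources (edgeR's test of differential usage, adjusted p = 0.790 over 33 hairpins, of which 21.2% were called). miR-146b-3p passed the count filter through the BMDC EV libraries alone. With 10 counts of it in colon EVs, a difference in arm use could have gone unseen.

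Because hematopoietic miRNAs moved with the members, the members were also set against miR-142a-3p, which marks blood cells in general, and miR-223-3p, which is strongest in myeloid cells, within each library. miR-155-5p had 0.953, 1.66 and 1.52 counts per count of miR-142a-3p in colon EV replicates 1 to 3. It had 2.08, 1.76 and 2.17 in BMDC EV replicates 1 to 3, above all colon EV libraries. Against miR-223-3p, its mean ratio was 1.83 ± 0.164 (SD, n = 3) for colon EVs against 2.09 ± 0.461 (SD, n = 3) for BMDC EVs, and the groups overlapped (two-sided exact permutation test, p = 0.6). The overlap came from BMDC EV replicate 3, at 1.56, and without that library the log2 difference was 0.37 in place of 0.17. Without BMDC EV replicate 1 or replicate 2 it was 0.07. The 33.5-fold difference of miR-155-5p between the sources thus became 1.49-fold when taken per count of miR-142a-3p and 1.13-fold per count of miR-223-3p, by geometric means.

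For miR-146a-5p the ratios lay the other way. It had 0.405, 0.333 and 0.407 counts per count of miR-142a-3p in colon EV replicates 1 to 3, compared with 0.189, 0.172 and 0.260 in BMDC EV replicates 1 to 3. Against miR-223-3p it had 0.700, 0.380 and 0.524 in colon EVs and 0.215, 0.232 and 0.187 in BMDC EVs. With either denominator every colon EV library lay above every BMDC EV library, by −0.90 and −1.30 on the log2 scale of BMDC EVs over colon EVs. The direction depends on the marker chosen: miR-150-5p, another of the 7 markers, had a log2 fold change of 3.31, below the 3.68 of miR-146a-5p. The remaining markers had larger log2 fold changes than miR-146a-5p, and no ratio to miR-150-5p was formed. Relative to the sum of the 7 hematopoietic markers, a denominator added after the counts were seen, miR-146a-5p was at 0.147 ± 0.0271 (SD, n = 3) for colon EVs against 0.0733 ± 0.00437 (SD, n = 3) for BMDC EVs. miR-146b-5p lay between them: its ratio to miR-142a-3p was 0.170 ± 0.0179 (SD, n = 3) for colon EVs against 0.154 ± 0.0396 (SD, n = 3) for BMDC EVs, with overlapping groups (two-sided exact permutation test, p = 0.7), and its ratio to miR-223-3p was 0.235 ± 0.0493 (SD, n = 3) against 0.157 ± 0.0341 (SD, n = 3), with no overlap but only just, the nearest libraries being at 0.198 and 0.196. Of the 11 ratios formed, 8 did not overlap between the groups and had p = 0.1, the smallest the exact test allows, which is 0.138 after adjustment. A lack of overlap was common in this comparison: by level, 42.7% of all 220 tested miRNAs were higher in every BMDC EV library and 39.1% in every colon EV library. No such share was computed for ratios of other miRNAs. Without colon EV replicate 1 the difference for miR-146a-5p was −0.85 against miR-142a-3p and −1.09 against miR-223-3p, and for miR-155-5p it was 0.33 and 0.10.

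**Figure D4:**
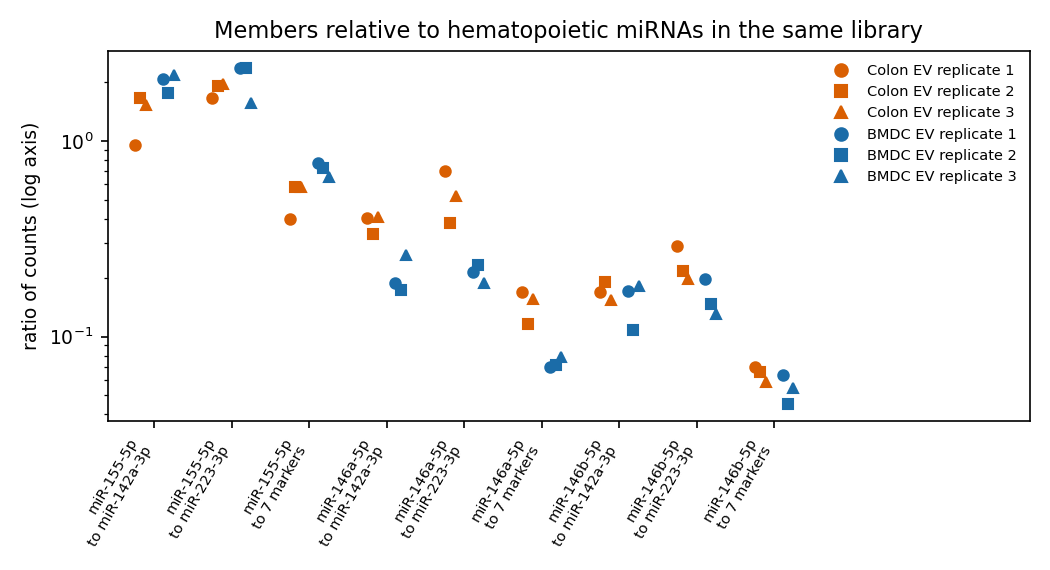
Counts of miR-155-5p, miR-146a-5p and miR-146b-5p per count of miR-142a-3p, of miR-223-3p or of 7 summed hematopoietic markers in the same library, on a log axis, 1 symbol per library. For miR-146a-5p the colon EV libraries lie above the BMDC EV libraries with each denominator, while for miR-155-5p they lie below with miR-142a-3p and the 7 markers and overlap with miR-223-3p.

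Across the 6 libraries, the tested miRNAs whose log2 levels followed each member most closely, by the root mean square difference of levels centered on their own means, were different for each. For miR-155-5p they were miR-342-5p, miR-223-5p and miR-223-3p, at 0.17, 0.17 and 0.23. For miR-146b-5p they were miR-342-3p, miR-142a-5p and miR-296-3p, at 0.19, 0.21 and 0.23. For miR-146a-5p they were miR-351-5p, miR-503-5p and miR-25-5p, at 0.21, 0.23 and 0.27. In colon EVs the mean levels of miR-503-5p, miR-25-5p and miR-296-3p were 9.48, 18.6 and 11.6 CPM, near the floor of 3 counts. Their likeness to a member thus rests on few colon counts. The members themselves were less alike, at 0.43 between miR-146a-5p and miR-146b-5p, 0.48 between miR-146b-5p and miR-155-5p and 0.81 between miR-146a-5p and miR-155-5p. The 6 points share 2 sources, which set most of each profile, and these values are a description.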

How the data were processed

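Small RNA libraries (QIAseq miRNA kit) of 3 colon EV and 3 BMDC EV preparations were grouped by their titles. Values deposited by the authors are estimated counts for each mature miRNA, not normalized and not always whole. The submitters' processing notes name STAR 2.7.6a, featureCounts 1.6.3, DESeq2 1.30.1 and GRCm38, without settings. The use of molecular identifiers is not given in the sources used here, so that intervals and floors cover counting error only. Nothing states that the preparations came from separate animals, and p-values measure the spread between these libraries.

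Counts were rounded and compared in R 4.3.3 with edgeR 4.0.16 (quasi-likelihood test, TMM, 10 counts in at least 3 libraries, Benjamini-Hochberg adjustment over 220 miRNAs). SE is the log2 fold change divided by the square root of F. Usage within seed families and hairpins was tested by edgeR's differential usage test, ratios by exact permutation in scipy 1.17.1. The fits were tried on simulated data with the same spread for every miRNA, and low levels were raised in the usage simulation. That simulation thus does not cover arms with few counts, such as miR-146b-3p. Members, lists and tests were chosen with earlier results of these data known. Named miRNAs are the members, the 3 highest and 3 lowest called of the inflammation list, the 3 most alike per 5p member, markers and seed mates; miR-21a-5p and miR-147-3p were named after their values were seen. Alternatives were DESeq2 1.42.0, limma 3.58.1 with voom, other scalings, filters, unrounded counts, a replicate block and leaving out each library.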

Additional observations from a re-analysis of the deposited data

How the results depend on the processing

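Under the alternatives run, miR-146a-5p had log2 fold changes of 3.20 to 4.12, miR-146b-5p of 3.95 to 4.89 and miR-155-5p of 4.63 to 5.49, and 3 members were called higher in BMDC EVs under each of them. The scaling moved the median of all tested miRNAs between 0.06 and 0.64, and relative to that median the members stood at 3.48 to 3.50, 4.24 to 4.26 and 4.85 to 4.88. The difference in the miR-146a-5p to miR-146b-5p ratio lay between −0.90 and −0.57 on the log2 scale, and that in the ratio of miR-155-5p to miR-146 between 0.94 and 1.40 with each library left out. Of the inflammation list, 6 to 9 miRNAs were higher in BMDC EVs in place of 8, and 4 to 8 were higher in colon EVs in place of 5, the 8 with no count filter, where 771 miRNAs were tested in place of 220. Of 126 values recomputed, 125 kept their direction and side of the threshold or stayed within 1.5 times the count. The ratios among them were compared by direction alone, and the ratios to hematopoietic miRNAs were not among them. Of the latter, the log2 difference for miR-146b-5p against miR-142a-3p turned from −0.18 to 0.06 without BMDC EV replicate 2. With the replicate number as a block, the log2 fold changes were 3.70 for miR-146a-5p, 4.43 for miR-146b-5p and 5.17 for miR-155-5p, and 164 miRNAs were called in place of 169. Deviations from the group mean had a mean correlation of −0.105 over 3 pairs of libraries with the same number and 0.0529 over 6 pairs with different numbers. These 2 values are tied, because each group was centered on its own 3 libraries. So few pairs cannot decide whether the number pairs the libraries. No fold change of miR-146a-3p or miR-155-3p and no arm ratio of mir-146a or mir-155 is given, because the counts of these 3p arms were at 0 in most or all libraries. Counting error is widest for the colon EV ratios, where miR-146b-5p had 71 to 150 counts although those libraries were mostly the deeper ones.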
